A study of Mus musculus with 20 samples.

Results

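The 5 inhibitors of cyclin-dependent kinases (*Cdkn1a*, *Cdkn1b*, *Cdkn2a*, *Cdkn2b* and *Cdkn2c*), the tumor suppressor gene *Trp53*, its inhibitor *Mdm2* and the p53 targets *Ccng1* and *Gdf15* were measured in mouse kidneys with and without loss of *Pkd2*, a gene of polycystic kidney disease. These 9 of the 24411 gene symbols of the count table were chosen by name, with earlier results of these data known. Libraries were made from the kidneys of 20 C57BL/6 mice, namely 5 male controls (MC1 to MC5), 5 male mutants (MM1 to MM5), 5 female controls (FC1 to FC5) and 5 female mutants (FM1 to FM5). Mutants were *Pkd2* fl/fl; *Pax8*rtTA; *TetO*Cre, in which the *Pax8* promoter drives the doxycycline-dependent activator in the tubules, so that other cells of the kidney keep *Pkd2*. Controls carried the same floxed alleles but lacked *Pax8*rtTA or *TetO*Cre. All 4 groups received doxycycline at 50 mg per kg daily from P27 to P29, and kidneys were taken at P125. The kidney weight given for each mouse, as a percentage of its body weight (KBW), was 0.836% to 2.15% in the 10 mutants. The study's own ratio takes the weight of a single kidney per mouse.

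The kinase inhibitors fall into 2 families. The Cip/Kip members p21 (*Cdkn1a*) and p27 (*Cdkn1b*) bind several cyclin and kinase complexes, and the INK4 members p16 (*Cdkn2a*), p15 (*Cdkn2b*) and p18 (*Cdkn2c*) bind the kinases that pair with D cyclins and so keep the retinoblastoma protein active. p53 is held low by the ubiquitin ligase encoded by *Mdm2*, is released by DNA damage and other stress, and then raises transcription of *Cdkn1a*, *Mdm2*, *Ccng1* and *Gdf15*. In the kidney, p21 and p16 are known from injured and senescent tubule cells, and GDF15 is a secreted stress cytokine that also answers to stress pathways other than p53. Bulk RNA from a kidney mixes all its cells, so that fewer cells of a type and less RNA per cell cannot be told apart.

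Before the results, the libraries were compared. Total counts were 11307741 to 19324073 per mouse, and *Pkd2* was at 250 to 332 CPM (counts scaled to a common library size by the TMM method) in male controls and 110 to 133 in male mutants, against 193 to 306 in female controls and 94.7 to 182 in female mutants. The library of FM4 stood apart, with 14850 genes detected against 16776 to 17724 in the other libraries and 76 genes with exactly 1 count against 708 to 859. Results that rest on FM4 are given with and without it. The summed CPM of the proximal tubule markers (*Slc34a1*, *Slc5a2*, *Slc5a12*, *Lrp2* and *Slc22a6*) was 9203 to 10081 in male controls, 7625 to 8364 in female controls and 4992 to 10478 in mutants, and the adrenal markers summed to 3.84 to 7.86 CPM in all libraries.

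The promoter sequences show which members hold p53-like sequence next to an annotated start. RefSeq windows (GRCm38.p6) from 250 bases before to 50 after each start were matched by symbol for all 9 members, 13 windows in all, and searched on both strands for the p53 half-site consensus of 10 bases. Windows of *Cdkn1a*, *Trp53*, *Mdm2* and *Ccng1* held a match, 4 of the 13, and windows of *Gdf15* and of the 4 other inhibitors held none, where 8.36% of all 32851 windows did. The upstream start of *Cdkn1a* also held CATG, 6 bases, CATG, which was in 0.712% of all windows and overlaps the second of its 2 half-site matches. The 4 stretches with a match are printed 5′ to 3′ on the gene's strand, whole upstream part for *Cdkn1a* and 40 bases to each side for the others, with the matches in capitals. *Cdkn1a* is on the plus strand at chr17:29090729-29090978, *Trp53* on the plus strand at chr11:69580244-69580333, *Mdm2* on the minus strand at chr10:117710895-117710984 and *Ccng1* on the minus strand at chr11:40755422-40755511.
*Cdkn1a*: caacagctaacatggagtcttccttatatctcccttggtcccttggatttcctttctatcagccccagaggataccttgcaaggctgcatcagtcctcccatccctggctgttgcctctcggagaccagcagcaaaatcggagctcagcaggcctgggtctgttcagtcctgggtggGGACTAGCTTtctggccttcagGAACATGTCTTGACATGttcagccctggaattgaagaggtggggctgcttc
*Trp53*: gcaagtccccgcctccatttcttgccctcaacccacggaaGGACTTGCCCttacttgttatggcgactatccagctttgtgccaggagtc
*Mdm2*: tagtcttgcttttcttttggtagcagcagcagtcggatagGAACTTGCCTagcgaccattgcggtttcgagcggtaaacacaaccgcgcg
*Ccng1*: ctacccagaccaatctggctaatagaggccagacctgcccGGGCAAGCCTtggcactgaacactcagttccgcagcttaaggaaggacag
A match is a description of letters and not a bound site, and no match says only that these letters are not in the window. The *Mdm2* promoter that is known to answer to p53 lies in the first intron of the gene, outside this window.

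Among the Cip/Kip inhibitors, *Cdkn1a* rose in mutants and *Cdkn1b* did not pass the test. *Cdkn1a*, the p21 gene (chromosome 17, 29090976 to 29100727, plus strand, GRCm38), had the largest change of the 8 members tested. In males, *Cdkn1a* was at 6.88, 9.02, 9.09, 9.33 and 7.14 CPM in MC1 to MC5 and at 50.7, 13.9, 40.4, 42.3 and 15.0 CPM in MM1 to MM5. In females, *Cdkn1a* was at 9.89, 13.3, 16.4, 14.4 and 12.5 CPM in FC1 to FC5 and at 43.5, 46.2, 60.3, 28.2 and 15.5 CPM in FM1 to FM5. All 5 male mutants lay above every male control, as they did for 8.75% of the 14010 genes tested in males, while FM5 was below the highest female control. The mutants themselves were spread widely, with MM2, MM5 and FM5 close to the controls. The log2 fold change from edgeR was 1.83 ± 0.31 (SE) in males (adjusted p = 0.00268), 1.51 ± 0.27 among females (adjusted p = 0.0144) and 1.65 ± 0.22 over both sexes (adjusted p = 3.98e-05), and a call required an adjusted p under 0.01. Over the 10 fits that each left out 1 male, the male adjusted p lay between 8.25e-05, without MM2, and 0.0212, without MC4. Over the corresponding female fits it lay between 0.00321, without FM4, and 0.0589, without FM1. *Cdkn1a* was higher in mutants in each of the 6 combinations of sex and litter, by 0.31 to 2.13 in mean log2 CPM.

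*Cdkn1b*, the p27 gene (chromosome 6, 134920401 to 134925513, plus strand), was at 78.1, 70.4, 74.4, 70.5 and 61.2 CPM in MC1 to MC5 and at 64.7, 69.7, 70.9, 67.1 and 71.0 CPM in MM1 to MM5. In females, *Cdkn1b* was at 67.4, 73.0, 72.4, 78.0 and 63.7 CPM in FC1 to FC5 and at 83.5, 80.8, 61.7, 70.2 and 81.3 CPM in FM1 to FM5. Groups overlapped in both sexes. The log2 fold change over both sexes was 0.03 ± 0.07 (SE, edgeR adjusted p = 0.763). In level per kilobase of exon, *Cdkn1b* was at 15.6 CPM per kb in male controls against 2.33 for *Cdkn1a*, and in male mutants the values were 15.1 and 9.13.

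**Figure D1:**
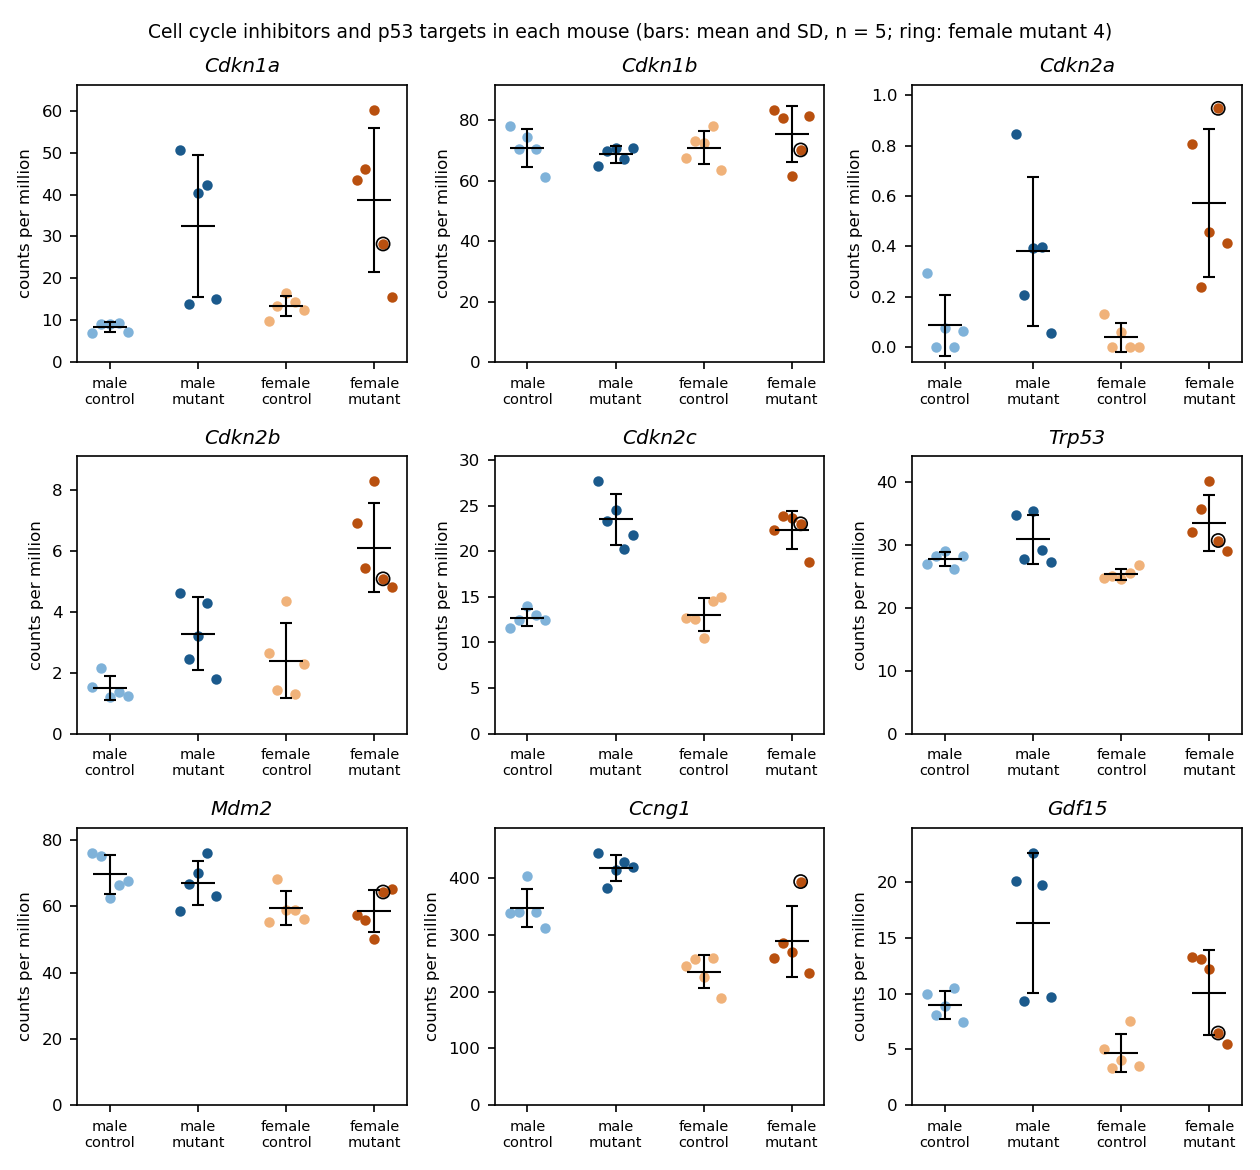
CPM of the 9 genes in each mouse (points), with mean and SD of the 5 mice of each group (bars), each gene on its own linear axis. *Cdkn2c* separates all 10 mutants, at 18.8 CPM or more, from all 10 controls, at 15.0 or less, whereas *Cdkn1b* and *Mdm2* overlap in every group and FM4 (ringed) has the highest *Ccng1* of the females.

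Both INK4 genes that passed the low-count filter rose over both sexes, and *Cdkn2c* did so with the smallest spread. *Cdkn2c*, the p18 gene (chromosome 4, 109660876 to 109667189, minus strand), was at 11.6, 12.5, 14.0, 13.1 and 12.5 CPM in MC1 to MC5 and at 27.7, 23.3, 24.5, 20.2 and 21.8 CPM in MM1 to MM5. In females, *Cdkn2c* was at 12.7, 12.5, 10.5, 14.5 and 15.0 CPM in FC1 to FC5 and at 22.3, 23.9, 23.7, 23.0 and 18.8 CPM in FM1 to FM5. All 10 mutants lay above all 10 controls, the one member for which this held, and 0.979% of the 14191 genes tested over both sexes showed the same. The log2 fold change was 0.89 ± 0.10 (SE) in males (edgeR adjusted p = 0.000562), 0.80 ± 0.14 among females (adjusted p = 0.0121) and 0.84 ± 0.08 over both sexes (adjusted p = 2.86e-06). *Cdkn2c* stayed called in males in all 10 fits that left out 1 mouse (adjusted p at most 0.00416). In females it was called without FM4 (adjusted p = 0.00582) and in none of the 9 other such fits (adjusted p up to 0.0523).

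*Cdkn2b*, the p15 gene (chromosome 4, 89306299 to 89311039, minus strand), was lower in abundance and more variable. In males, *Cdkn2b* was at 1.54, 2.16, 1.20, 1.38 and 1.22 CPM in MC1 to MC5 and at 4.63, 2.46, 3.21, 4.29 and 1.81 CPM in MM1 to MM5. In females, *Cdkn2b* was at 2.64, 1.42, 4.36, 1.31 and 2.28 CPM in FC1 to FC5 and at 6.91, 5.45, 8.30, 5.09 and 4.82 CPM in FM1 to FM5. All female mutants lay above all female controls, as they did for 3.71% of the 14439 genes tested in females, and MM5 was below the highest male control. These values rest on 16 to 164 counts per mouse. Over both sexes *Cdkn2b* rose by 1.24 ± 0.22 on the log2 scale (SE, edgeR adjusted p = 0.000548). Its log2 fold changes of 1.08 ± 0.27 in males (adjusted p = 0.0171) and 1.37 ± 0.35 among females (adjusted p = 0.0465) were not calls.

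*Cdkn2a* (chromosome 4, 89274471 to 89294653, minus strand) encodes p16 and, from another first exon and reading frame, p19Arf, which restrains MDM2. Gene counts do not separate the 2 transcripts. The low-count filter removed it from every comparison. Male controls MC1 to MC5 had 4, 0, 1, 0 and 1 counts and male mutants MM1 to MM5 had 15, 3, 6, 6 and 1 counts. Female controls FC1 to FC5 had 2, 0, 1, 0 and 0 counts and female mutants FM1 to FM5 had 16, 4, 9, 11 and 7 counts. All female mutants were above all female controls, as for 3.71% of the 14439 genes that passed the filter in females, while in males the groups overlapped. Mean CPM was 0.572 ± 0.295 (SD, n = 5) in female mutants and 0.0382 ± 0.0583 (SD, n = 5) in female controls, a difference of 0.534 CPM (two-sided exact permutation test, p = 0.00794, the smallest that 5 mice against 5 allow). Male mutants were at 0.380 ± 0.298 CPM (SD, n = 5) and male controls at 0.0864 ± 0.121 (SD, n = 5), a difference of 0.293 CPM (two-sided exact permutation test, p = 0.0714). Over all 20 mice the difference was 0.414 CPM (two-sided exact permutation test, p = 0.000227). Without FM4 the female difference was 0.44 CPM and p was unchanged at 0.00794. With mice exchanged only within litters, a test chosen after the data were seen, p was 0.025 in females, the smallest it allows, 0.0667 in males and 0.000833 over both sexes (two-sided exact permutation tests). Counts this low carry large counting error, and a control library with 0 counts allows up to 3.

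No 50-base stretch of a *Cdkn2a*, *Cdkn2b*, *Cdkn2c* or *Cdkn1b* transcript in GENCODE M21 occurred in a transcript of another gene, so that the neighbors *Cdkn2a* and *Cdkn2b* shared none. *Cdkn1a* shared 2.14% of its stretches with other genes and 7.68% of its exon bases with an unconfirmed gene model on the opposite strand, whose reads could not be told apart if strand was not used in counting. *Trp53* shared 3.88% of its stretches with other genes, most of them with the pseudogene *Trp53-ps*, and *Mdm2* shared 1.21%.

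*Trp53* rose slightly over both sexes and *Mdm2* did not pass any of the tests between genotypes. *Trp53* (chromosome 11, 69580359 to 69591873, plus strand) was at 26.999, 28.2, 28.99, 26.2 and 28.2 CPM in MC1 to MC5 and at 34.8, 27.8, 35.4, 29.2 and 27.3 CPM in MM1 to MM5. In females, *Trp53* was at 24.8, 25.03, 24.5, 25.5 and 26.7 CPM in FC1 to FC5 and at 32.1, 35.7, 40.1, 30.7 and 28.96 CPM in FM1 to FM5. All female mutants lay above all female controls, as they did for 3.71% of the 14439 genes tested in females. Males overlapped, with MM2 and MM5 among the controls. For *Trp53*, the log2 fold change was 0.29 ± 0.08 (SE) over both sexes (edgeR adjusted p = 0.00843), 0.15 ± 0.10 in males (adjusted p = 0.305) and 0.43 ± 0.12 among females (adjusted p = 0.058). The joint call was lost in 13 of the 20 fits that left out 1 mouse, with adjusted p between 0.00345, without MM2, and 0.0331, without MM1, and it held in 4 of 6 other settings (adjusted p up to 0.0113).

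*Mdm2* (chromosome 10, 117688875 to 117710758, minus strand) was at 76.2, 75.3, 62.6, 66.5 and 67.7 CPM in MC1 to MC5 and at 58.7, 66.8, 70.1, 76.2 and 63.1 CPM in MM1 to MM5. In females, *Mdm2* was at 55.2, 68.4, 58.9, 59.0 and 56.1 CPM in FC1 to FC5 and at 57.4, 55.9, 50.1, 64.3 and 65.2 CPM in FM1 to FM5. Mutants and controls overlapped in both sexes. Its log2 fold change over both sexes was −0.05 ± 0.07 (SE, edgeR adjusted p = 0.658). The mutants with the most *Cdkn1a* in each sex, MM1 and FM3, had the least *Mdm2* of their sex. This order did not hold throughout. MM4 had the next most *Cdkn1a* of the male mutants, at 42.3 CPM, and the most *Mdm2* of them, at 76.2 CPM.

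Both remaining p53 targets rose over both sexes, *Ccng1* by little and *Gdf15* by more. *Ccng1*, which encodes cyclin G1, a recruiter of a phosphatase to MDM2 (chromosome 11, 40748552 to 40755311, minus strand), was the most abundant member per kilobase, at 67.0 to 119 CPM per kb in the group means. In males, *Ccng1* was at 339, 341, 403, 341 and 312 CPM in MC1 to MC5 and at 445, 383, 414, 428 and 420.1 CPM in MM1 to MM5. In females, *Ccng1* was at 246, 258, 225, 259.7 and 188 CPM in FC1 to FC5 and at 259, 286, 270.0, 394 and 234 CPM in FM1 to FM5. Of the male mutants, 4 were above every male control, and FM4 stood far above the other females. For *Ccng1*, the log2 fold change was 0.29 ± 0.07 (SE) over both sexes (edgeR adjusted p = 0.00633), 0.27 ± 0.08 in males (adjusted p = 0.0283) and 0.31 ± 0.12 among females (adjusted p = 0.154). Without FM4 the female value was 0.21 (adjusted p = 0.157) and the joint value 0.23 (adjusted p = 0.00523). The joint call was lost in 13 of the 20 fits that left out 1 mouse, with adjusted p up to 0.0181, without MC4, and it held in 5 of 6 other settings (adjusted p up to 0.0122).

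*Gdf15* (chromosome 8, 70629393 to 70632456, minus strand) was at 9.95, 8.07, 8.86, 10.6 and 7.46 CPM in MC1 to MC5 and at 20.1, 9.36, 22.7, 19.7 and 9.71 CPM in MM1 to MM5. In females, *Gdf15* was at 5.01, 3.33, 4.07, 7.50 and 3.49 CPM in FC1 to FC5 and at 13.3, 13.1, 12.2, 6.47 and 5.46 CPM in FM1 to FM5. The mutants of each sex fell apart, with MM2, MM5, FM4 and FM5 within the range of the controls of their sex and the other 6 mutants above it. *Gdf15* had a log2 fold change of 0.91 ± 0.18 (SE) over both sexes (edgeR adjusted p = 0.000935), 0.73 ± 0.20 in males (adjusted p = 0.0228) and 1.11 ± 0.28 among females (adjusted p = 0.0454). Without FM4 the female value was 1.25 (adjusted p = 0.00869), and over the 10 female fits that left out 1 mouse the adjusted p reached 0.148, without FM1.

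Counted together, 6 of the 8 tested members rose over both sexes and none fell, with a median log2 fold change of 0.56, where 10.0% of the 14191 genes tested rose, 15.9% were called in either direction and the median was −0.01. Since the members were chosen with earlier results known, these shares are a description. In males 2 of 8 rose (*Cdkn1a* and *Cdkn2c*), where 5.25% of 14010 genes rose and 8.46% were called. In females none of the 8 was called by edgeR, where 0.637% of 14439 genes were, although 6 had an unadjusted p under 0.05, as did 20.6% of all genes tested, and DESeq2's Wald test called 4, against 6.43% of all genes. The female count was 3 of 8 without FM4 (*Cdkn1a*, *Cdkn2c* and *Gdf15*), and the male count was 5 of 8 without MM2 and 1 of 8 without MC3 or without MC4. Calls over all genes moved with these fits, to 866 in females without FM4, and in males to 1863 without MM2 and 187 without MC4.

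**Figure D2:**
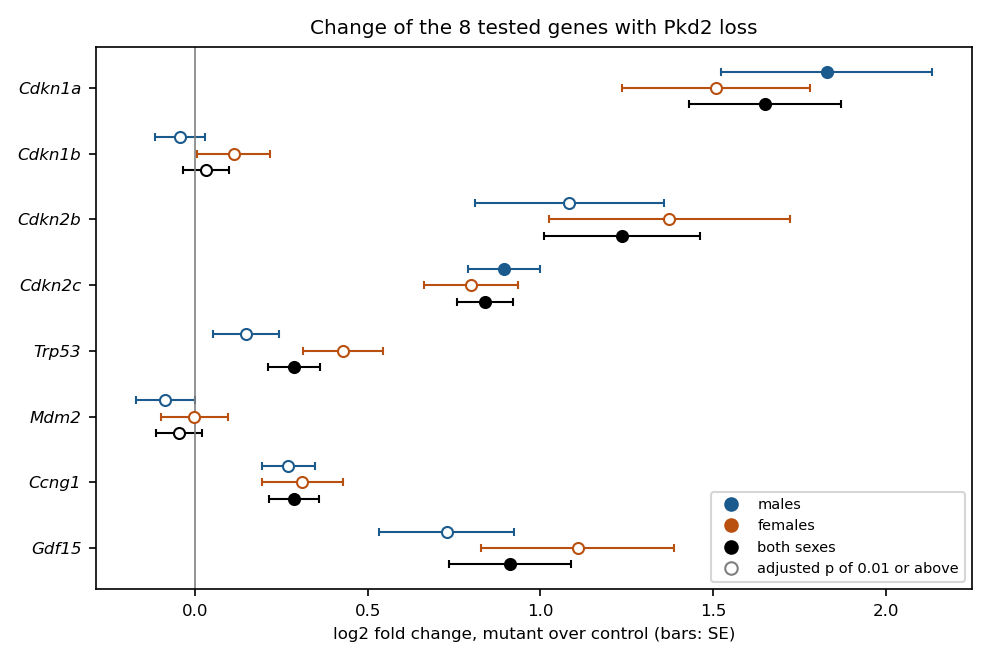
Log2 fold change of mutants over controls for the 8 tested genes, with SE as bars, in males, females and both sexes, where filled points have an edgeR adjusted p under 0.01. *Cdkn1a* lies between 1.51 and 1.83 and *Cdkn1b* and *Mdm2* lie within 0.12 of 0.

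The change with genotype did not differ detectably between the sexes. In the sex by genotype term none of the 8 members was called by edgeR or by DESeq2 and none had an unadjusted p under 0.05, and edgeR called 0% of 14820 genes, DESeq2's Wald test called 0.121%, and 4.17% had an unadjusted p under 0.05 in edgeR. The largest term was that of *Gdf15*, at −0.36 ± 0.35 (SE, males minus females on the log2 scale), and the smallest unadjusted p was that of *Trp53* (−0.25 ± 0.14, unadjusted p = 0.0989 in edgeR's fit over all genes).

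The sexes themselves differed for 2 of the 8 members in controls, where 17.8% of 14123 genes were called. Male controls had more *Ccng1* (log2 difference 0.61 ± 0.08 SE, edgeR adjusted p = 0.000215), with no overlap between the 5 male and the 5 female controls, as for 23.9% of all genes tested there. They also had more *Gdf15* (1.04 ± 0.22, edgeR adjusted p = 0.00345), although FC4 at 7.50 CPM reached above MC5 at 7.46 and the call was lost in 4 of the 10 fits that left out 1 mouse (adjusted p up to 0.0465, without MC4). *Cdkn1a* was the other way around, at −0.50 ± 0.14 (edgeR adjusted p = 0.0181, not a call), with every female control above every male control. Without the litter term it was −0.64 (edgeR adjusted p = 0.00284), so that 3 members were called, where 3088 of 14123 genes were. In mutants none of the 8 was called, where 5.42% of 14416 genes were, while 3 had an unadjusted p under 0.05, as did 30.5% of all genes tested, and DESeq2's Wald test called 2, against 13.6% of all genes. There, *Ccng1* was 0.59 ± 0.14 higher in males (edgeR adjusted p = 0.0193, and 0.00102 without FM4, with a range of 0.00102 to 0.112 over the fits that left out 1 mouse) and *Cdkn2b* was at −0.93 ± 0.26 (edgeR adjusted p = 0.0372), with all female mutants above all male mutants, where 13.3% of all genes tested did not overlap between the mutant sexes.

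In order of group means, *Cdkn1a* ran from female mutants (38.7 ± 17.3 CPM, SD, n = 5) and male mutants (32.5 ± 16.9), which differed by less than their spread, down to female controls (13.3 ± 2.40) and male controls (8.29 ± 1.18). *Gdf15* was highest in male mutants (16.3 ± 6.30 CPM, SD, n = 5), followed by female mutants (10.1 ± 3.82), male controls (8.98 ± 1.28) and female controls (4.68 ± 1.71), and the 2 groups in the middle differed by less than their spread. *Ccng1* ran from male mutants (418 ± 22.8 CPM, SD, n = 5) over male controls (347 ± 33.7) and female mutants (288 ± 62.0) to female controls (235 ± 29.7), each neighbor pair apart by more than 1 pooled SD but with overlapping ranges. The mean and spread of the female mutants include FM4 at 394 CPM. The other female mutants were at 234 to 286 CPM, below all male controls at 312 CPM or more. *Mdm2* was highest in male controls (69.6 ± 5.89 CPM, SD, n = 5) and male mutants (67.0 ± 6.67), then female controls (59.5 ± 5.22) and female mutants (58.6 ± 6.26). This order of means ran by sex, but the sexes overlapped in both genotypes and neither difference between them was a call. Males minus females was 0.29 ± 0.09 in controls (log2, SE, edgeR adjusted p = 0.0342) and 0.23 ± 0.11 in mutants (edgeR adjusted p = 0.179).

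Most markers of injured tubules, immune cells and fibroblasts were higher in mutants. The sum of *Havcr1*, *Lcn2* and *Krt20* was 3.08 to 6.76 CPM in male controls and 58.3 to 495 in male mutants, and 2.24 to 6.84 in female controls and 20.6 to 337 in female mutants. All 3 rose over both sexes, where 1421 of all 14191 genes tested rose and 831 fell. *Krt20* had a mean of 0.128 CPM in male controls and 0.348 in female controls. It passed the low-count filter largely through the mutants, so that its rise was tied to its being tested. The sum of *Ptprc*, *Cd68*, *Adgre1*, *Cd3e* and *Cd79a* was 22.9 to 29.2 CPM in male controls and 33.2 to 85.1 in male mutants, and 22.3 to 42.8 and 35.2 to 128 in females, with 3 of 5 markers higher. Fibroblast markers (*Col1a1*, *Pdgfrb* and *Acta2*) summed to 63.2 to 81.0 CPM in male controls and 103 to 314 in male mutants, and to 93.2 to 132 and 127 to 434 in females, with 2 of 3 higher. Of the other marker lists, 3 of 3 loop and distal tubule, 3 of 4 collecting duct and 3 of 3 podocyte markers fell, while none of 5 proximal tubule, 3 endothelial, 1 tested adrenal and 1 tested adipose markers was called. No proximal tubule marker was called, and their sum was set against a split of the mutants by *Cdkn1a* made after the values were seen. The sum was below every control of the same sex in the 6 mutants with the most *Cdkn1a*, at 4992 to 5565 CPM in FM1 to FM3 and at 6640.2 to 8719.6 in MM1, MM3 and MM4, and not in MM2, MM5, FM4 and FM5. The part of these cells in the members' changes was not tested.

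Other targets of p53 were examined from a list of 30 genes, of which 29 passed the filter. Over both sexes 9 rose, 1 fell (*Fdxr*, a mitochondrial reductase) and 19 were not called, and the list's median log2 fold change was 0.07 against −0.01 for all genes. Of all 14191 genes tested there, 10.0% rose and 15.9% were called in either direction. *Eda2r*, a receptor of the tumor necrosis factor family, had a log2 fold change of 2.37 ± 0.25 (SE, edgeR adjusted p = 5.49e-06), and its level was 0.849 ± 0.352 CPM (SD, n = 5) in male controls and 4.81 ± 2.49 in male mutants. It was called in each sex alone. *Phlda3*, an inhibitor of AKT, rose by 1.04 ± 0.19 (SE, edgeR adjusted p = 0.000504). The kinase gene *Plk2* rose by 0.78 ± 0.13 (SE, edgeR adjusted p = 0.000363) and *Pmaip1*, which encodes the death factor NOXA, by 0.74 ± 0.13 (edgeR adjusted p = 0.000423). Of the 3 most abundant targets that were not called, *Ei24* was at −0.01 ± 0.06, *Perp* at −0.06 ± 0.06 and *Dcxr* at −0.40 ± 0.11 (edgeR adjusted p = 0.0119).

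**Figure D3:**
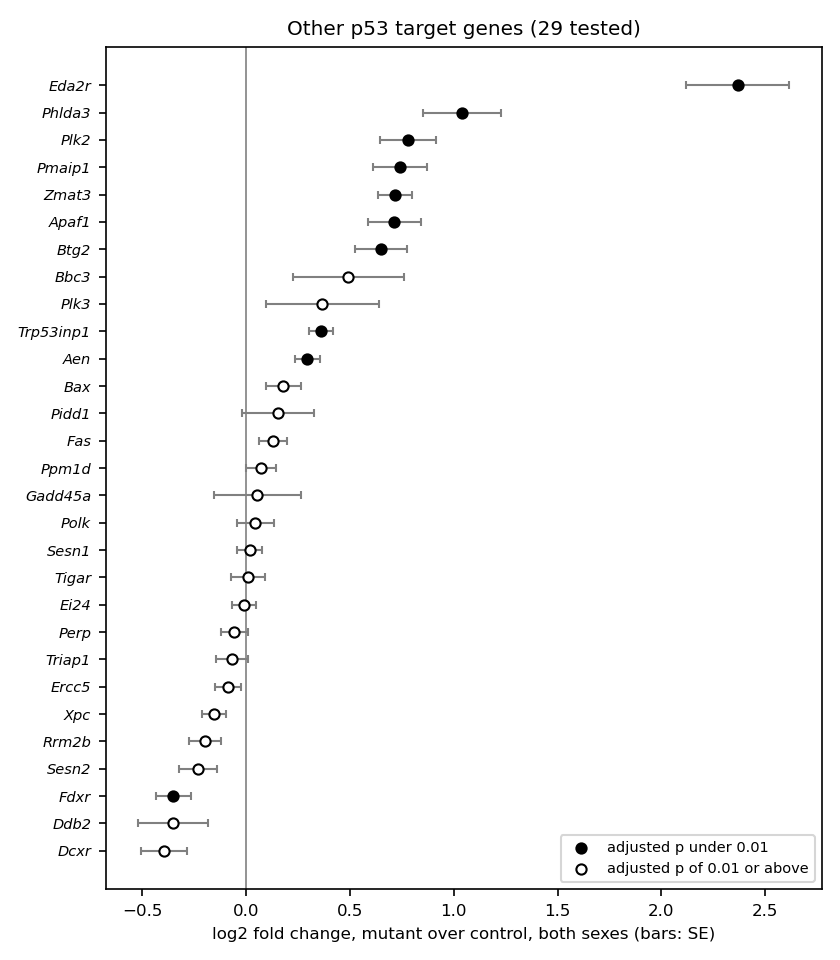
Log2 fold change of mutants over controls in both sexes for the 29 tested p53 targets that are not members, with SE as bars, where filled points have an edgeR adjusted p under 0.01. *Eda2r* stands alone at 2.37, 8 more genes lie between 0.29 and 1.04 with a call, and *Fdxr* at −0.35 is the one called below 0.

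Of 10 tested regulators and relatives of p53, 1 rose over both sexes, the checkpoint kinase gene *Chek1* (1.52 ± 0.29 SE, edgeR adjusted p = 0.000837), and none fell. That is near the share of all genes tested that rose there, 10.0%. In males *Chek1* rose too, and *Mdm4*, which encodes an inhibitor of p53 related to MDM2, fell by 0.60 ± 0.11 on the log2 scale (SE, edgeR adjusted p = 0.00442), while over both sexes *Mdm4* was at −0.38 ± 0.12 (adjusted p = 0.0208). The 2 other inhibitors, *Cdkn1c* and *Cdkn2d*, were not called over both sexes (−0.27 ± 0.13 and 0.09 ± 0.11).

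The cyclins, their kinases and the genes downstream of them were examined over both sexes, where 10.0% of all genes tested rose. Of 12 cyclins and cyclin-dependent kinases 8 rose, none fell and 4 were not called, with a median log2 fold change of 0.75. The mitotic cyclins *Ccnb1* (2.24 ± 0.24 SE), *Ccnb2* (2.16 ± 0.24) and *Ccna2* (1.89 ± 0.20) and the kinase *Cdk1* (2.02 ± 0.24) led them, each with an edgeR adjusted p of at most 1.43e-05. Of 13 genes of the retinoblastoma and E2F group 4 rose, none fell and 9 were not called, with a median of 0.08 (*E2f8* 2.03 ± 0.42, *E2f7* 1.70 ± 0.36, *E2f1* 0.71 ± 0.14 and *Tfdp1* 0.35 ± 0.07). Of 12 proliferation markers 10 rose, led by *Bub1* (2.59 ± 0.26), *Aurkb* (2.42 ± 0.27), *Top2a* (2.37 ± 0.22) and *Mki67* (2.14 ± 0.23). *E2f7*, *E2f8* and *Bub1* had control group means of 0.339 to 0.549 CPM, near the floor, and passed the low-count filter largely through the mutants.

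Genes often listed with senescence split by kind over both sexes, where 10.0% of all genes tested rose. Of 14 genes for secreted factors 10 passed the low-count filter and 9 rose. Among them were *Timp1*, an inhibitor of metalloproteinases (5.28 ± 0.49 SE), the metalloproteinase gene *Mmp3* (3.62 ± 0.42) and the chemokine genes *Ccl2* (3.27 ± 0.39) and *Cxcl1* (2.98 ± 0.35). Injured tubule and immune cells also express such genes. The named secreted factors had control group means of 0.248 to 0.794 CPM, near the floor. They passed the filter largely through the mutants in which they are high, so the count of 9 in 10 was partly fixed by the filter. *Lmnb1*, a nuclear lamina gene whose level is known to fall in senescent cells, rose by 0.97 ± 0.14 (SE, edgeR adjusted p = 6.55e-05), and the 3 other genes of its list of 4, *Glb1*, *Hmgb1* and *Hmgb2*, were not called. Of 7 genes of the ATF4 and CHOP stress response, a known inducer of *Gdf15*, 3 rose (*Atf3* 2.39 ± 0.25, *Trib3* 0.90 ± 0.23 and *Psat1* 0.29 ± 0.07), while *Atf4* and *Ddit3* themselves were at 0.19 ± 0.11 and 0.25 ± 0.12 and were not called.

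KBW was then set against each member in the 10 mutants. With sex as a term, none of the 8 members was called by edgeR (adjusted p 0.0875 or more), where 0% of 14416 genes were, and 4 members had an unadjusted p under 0.05. The slopes were 1.85 ± 0.56 log2 units per percentage point of KBW for *Cdkn1a* (SE, edgeR adjusted p = 0.0875), 1.40 ± 0.46 for *Gdf15* (adjusted p = 0.109), 0.43 ± 0.19 for *Trp53* (adjusted p = 0.21) and −0.38 ± 0.16 for *Mdm2* (adjusted p = 0.194). Of all genes tested, 22.3% had an unadjusted p under 0.05.

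Correlations of log2 CPM with KBW were computed for all 9 members without a sex term. *Gdf15* had Pearson's r = 0.802 (permutation p = 0.00504) and Spearman's rho = 0.818 (permutation p = 0.00589) over 10 mice. Without MM1 and FM4, the 2 mice farthest from the median KBW, r was 0.725 (exact permutation p = 0.0399), and with values centred within each sex it was 0.710 (exact permutation within sex, p = 0.0364). The order was not strict, since MM5 had 9.71 CPM of *Gdf15* at a KBW of 1.71%, and MM1 and FM3, with the largest KBW of their sex, did not have the most *Gdf15* of it. *Ccng1* had r = 0.511 (permutation p = 0.133) and rho = 0.661 (permutation p = 0.0447), but −0.127 when centred within sex (exact permutation p = 0.768), and the male mutants had a higher mean of both. Without FM4, r over all mutants was 0.746 for *Ccng1* (exact permutation p = 0.0204), 0.677 for *Cdkn2c* (exact permutation p = 0.0453) and 0.742 for *Gdf15* (exact permutation p = 0.0217).

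*Cdkn1a* showed the reverse, with r = 0.376 (permutation p = 0.283) and rho = 0.370 (permutation p = 0.295) over all mutants, 0.286 without MM1 and FM4 (exact permutation p = 0.473) and 0.715 when centred within sex (exact permutation p = 0.0342). *Trp53* at 0.733 (exact permutation p = 0.0257) and *Mdm2* at −0.703 (exact permutation p = 0.0353) likewise had a larger r within sex, against 0.282 (permutation p = 0.428) and −0.0211 (permutation p = 0.955) without centring. For the 4 other members, all kinase inhibitors, Pearson's r lay between −0.447 for *Cdkn1b* and 0.552 for *Cdkn2c*, and no permutation p of r was under 0.0943 with all 10 mice. These are 9 relations on the same 10 mice, and the p-values are not adjusted.

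**Figure D4:**
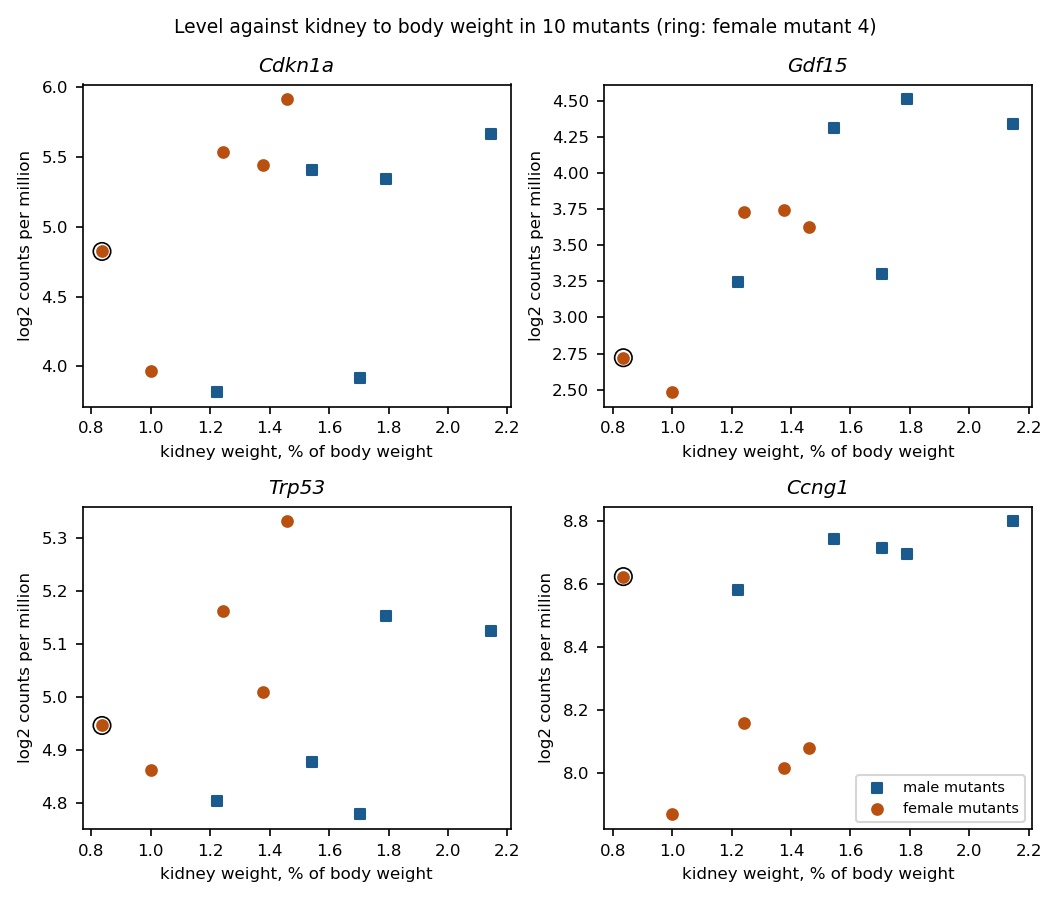
Log2 CPM of 4 members against kidney weight as a percentage of body weight in the 5 male (squares) and 5 female (circles) mutants. *Gdf15* is below 10 CPM in FM4, FM5 and MM2, at a KBW of 1.22% or less, and in MM5 at 1.71%, and at 12.2 CPM or more in the other 6 mutants, and *Ccng1* is higher in males than in 4 of the 5 females, with FM4 (ringed) at the male level.

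The genes whose log2 CPM over the 20 mice was most like that of each member were named as a description, out of 13781 genes with a mean of at least 1 CPM. For *Cdkn1a* they were the tropomyosin gene *Tpm4* (r = 0.976, 0.984 without FM4) and the condensin gene *Smc2* (0.967 and 0.977). *Gdf15* was most like *Hbegf*, which encodes a growth factor that binds the EGF receptor (r = 0.924), and *Shtn1* (0.915). *Cdkn2c* was most like *Ptgds* (0.955) and *Tor2a* (0.954), and *Cdkn2b* was most like *AI504432* (0.924) and the caspase gene *Casp1* (0.922). *Trp53* was most like *Foxp4* (0.900) and *Wfdc17* (0.899). *Ccng1* was most like *Tfg* (0.937) and *Reep3* (0.933), *Mdm2* was most like *Usp16* (0.860) and *Cdc37l1* (0.851), and *Cdkn1b* had the weakest likeness, with *Igip* (0.808) and *Gt(ROSA)26Sor* (0.799). The points share genotype, sex and library depth.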

How the data were processed

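Kidney RNA of 20 mice in 4 groups of 5 was analysed, with groups, sex, litter and weights taken from the labels. Before deposit, the authors used fastp 0.23.2 for trimming and STAR 2.7.10b for alignment to mm10. The deposited values are raw counts per gene symbol, without normalization. The counting tool, annotation and strandedness are not given in the sources used here. Each library is 1 mouse, numbered here in accession order.

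Here, counts were normalized by TMM and tested with edgeR 4.0.16 (quasi-likelihood test, filterByExpr by genotype in the joint fit and by group elsewhere, R 4.3.3) over all genes, with Benjamini-Hochberg adjustment and calls at an adjusted p under 0.01. The covariate was litter within a sex or genotype, the 6 groups of sex and litter in the joint fit and the sex by genotype term, and sex for KBW. Log2 CPM used a prior count of 2. SE is the log2 fold change divided by the root of its F statistic. *Cdkn2a*, removed by the filter, was compared by exact permutation of mean CPM, and correlations with KBW by 100000 permutations (exact with under 10 mice or within sex, scipy 1.17.1). Positions, exon lengths and shared stretches come from GENCODE M21 on GRCm38. The male comparison alone was tested on simulated counts, with the same spread setting for every gene, and the other comparisons and permutation tests were not.

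Named genes were all 9 members, *Pkd2*, up to 4 called genes with the largest joint change of each list, the 3 most abundant p53 targets not called, and the 2 genes most like each member. *Fdxr*, *Mdm4*, *Atf4*, *Ddit3*, *Cdkn1c*, *Cdkn2d*, *Glb1*, *Hmgb1* and *Hmgb2* were named after their values were seen. The members and lists were chosen with earlier results of these data known. Alternatives were DESeq2 1.42.0 size factors and Wald test, no low-count filter, a threshold of 0.05, 1 fit of all 20 mice, a fit without litter, leaving out each mouse, other KBW terms, and CPM without TMM. Chosen after the data were seen were the Wald test without FM4, the joint filter by the 4 groups, and litter as a block for *Cdkn2a* and the KBW correlations. So was the setting of marker sums against the members in the mutants. The authors' own comparison columns were not used here, and 0 sample columns of the count table were unused. Total counts limit precision mainly for *Cdkn2a* and *Cdkn2b*, and intervals of counts cover counting error only.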

Additional observations from a re-analysis of the deposited data

Results flagged for a closer look

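Over 36 sets of 5 log2 CPM values (9 members in 4 groups), 1 mouse stood apart from its group by Dixon's test at the 95% level. *Cdkn2c* in female mutants was lowest in FM5, at 18.8 CPM against 22.3 CPM in the next mouse, a gap of 0.719 of the group's whole range, where 0.710 is the critical value for 5 values. Chance alone flags about 1 in 20 such sets. FM5 remained above every control, and without it the female log2 fold change of *Cdkn2c* was 0.92 (edgeR adjusted p = 0.0133, with a range of 0.00582 to 0.0523 over the 10 fits that each left out 1 mouse).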

How the results depend on the processing

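No paired analysis was possible because the replicate numbers only name the mice in accession order. Litter, which mice share, was a covariate between genotypes and between sexes but not in the KBW fit, the correlations or the *Cdkn2a* tests. Exchanged within litters, *Cdkn2a* differed by 0.314 CPM in males, 0.534 in females and 0.427 over both sexes, on the same side of 0.05 as before, and with KBW correlations centred within litter 1 member, *Gdf15* (r = 0.923), had an exact permutation p under 0.05 (0.00139). These, the Wald test without FM4 and the joint filter by the 4 groups were chosen after seeing the data. With a threshold of 0.05 the number of members called between genotypes was 5 in males and 4 in females, and between sexes 4 in controls and 2 in mutants. Over all genes tested, that threshold called 2829 of 14010 in males and 791 of 14439 in females. It called 4211 of 14123 between control sexes and 2099 of 14416 between mutant sexes. DESeq2's Wald test called 5 in males, 4 in females, 5 in females without FM4 and 2 between male and female mutants. Over all genes it called 2001 of 14010, 928 of 14439, 1871 of 14595 and 1959 of 14416 in the same order. Without the litter term 3 members were called between control sexes, where 3088 of 14123 genes were. In females, 2 members were called without the low-count filter, 1 without the litter term and 5 with all 20 mice in 1 fit. Over all genes these settings called 230 of 19367, 172 of 14439 and 856 of 14820. The fit of all 20 mice called 1 member between male and female mutants, where it called 2353 of 14820 genes. With 1 mouse left out, the counts ran from 1 to 5 in males, 0 to 3 in females, 4 to 6 over both sexes, 1 to 2 between control sexes and 0 to 1 between mutant sexes. Over both sexes the other settings gave 5 or 6, and the sex by genotype and KBW counts stayed at 0 in all settings. The number of members with a correlation with KBW at permutation p under 0.05 was 1, with 4 after centring within sex and a range of 1 to 3 with 1 mouse left out. The male *Cdkn2a* difference ran from 0.176 to 0.374 CPM, and its exact permutation p was under 0.05 only without MM5.

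Signs turned only for values that were not calls. *Cdkn2c* between control sexes was 0.0055, 0.0054 and 0.0070 with DESeq2 size factors, the Wald test and no litter term, and −0.069 to 0.066 with 1 mouse left out. *Cdkn1b* there was −0.019 with all 20 mice in 1 fit and −0.018 to 0.10 with 1 left out. Without the sex term, the KBW slopes of *Cdkn2b* and *Ccng1* were −0.33 and 0.41. With 1 mouse left out, the slope of *Ccng1* ran from −0.34 to 0.23 and that of *Cdkn1b* from −0.20 to 0.042, the joint change of *Cdkn1b* from −0.0056 to 0.057, and the female change of *Mdm2* from −0.059 to 0.048. The sex by genotype terms ran from −0.11 to 0.10 for *Ccng1*, −0.23 to 0.61 for *Cdkn1a*, −0.0064 to 0.21 for *Cdkn2c* and −0.14 to 0.0086 for *Mdm2*. Correlations with KBW centred within sex were 0.261 for *Cdkn2a*, 0.582 for *Cdkn2b* and −0.127 for *Ccng1*. That of *Mdm2* was 0.02 centred within litter, 0.217 without the 2 farthest mice and −0.147 to 0.126 with 1 left out, and that of *Cdkn2a* ran from −0.472 to 0.218. The cause was not tested. Of 1134 member values under an alternative, 1025 kept direction and side of the threshold, 35 lost a call, 36 gained one and 38 turned sign.

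Counts over all genes moved too. Males called 1185 genes, 2829 at 0.05, 2001 by the Wald test, and 187 (without MC4) to 1863 (without MM2) with 1 mouse left out. Females called 92, then 791, 928, 1871 by the Wald test without FM4, and 3 (without FC2) to 866 (without FM4), with 230 without the filter, 172 without litter and 856 in 1 fit. The joint fit called 2252, 3778 at 0.05, 3738 by the Wald test without FM4 and 2344 with the filter by the 4 groups. Control sexes gave 2510, 4211 at 0.05, and 1223 (without MC4) to 2659 (without MC3). Mutant sexes gave 782, 2099 at 0.05, 1959 by the Wald test, 2353 in 1 fit, and 246 (without FM1) to 1330 (without FM4). The sex by genotype term gave 0, 1 at 0.05, 18 by the Wald test, 2 without the filter and up to 3 without FM4, and KBW gave 0, 363 at 0.05, 10 with litter, 34 with log2 KBW and up to 76 without MM5.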

Other observations

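The mutants that were low in *Cdkn1a* were also low in tubule injury markers, a relation looked at after the values were seen. The 4 mutants with the least *Cdkn1a* (MM2, MM5, FM5 and FM4) were the 4 with the lowest sum of *Havcr1*, *Lcn2* and *Krt20*, at 63.3, 58.3, 23.3 and 20.6 CPM against 158 or more in the other 6. KBW of MM5 was 1.71% although its *Cdkn1a* and injury markers were low. Over the 10 mutants, Pearson's r of log2 CPM of each member with the log2 of this sum is given as a description of that pattern and without a p, since the pattern prompted it. It was 0.836 for *Gdf15*, 0.799 for *Cdkn1a*, 0.686 for *Trp53*, 0.600 for *Cdkn2c*, 0.373 for *Cdkn2b*, 0.202 for *Cdkn2a*, 0.037 for *Ccng1*, −0.269 for *Cdkn1b* and −0.426 for *Mdm2*. With the sum of 5 immune markers, r was 0.851 for *Cdkn1a*, 0.784 for *Trp53*, 0.764 for *Cdkn2b*, 0.536 for *Gdf15*, 0.441 for *Cdkn2a*, 0.324 for *Cdkn2c*, −0.179 for *Cdkn1b*, −0.369 for *Ccng1* and −0.590 for *Mdm2*. Some of these values hung on 2 mice. The 2 mice farthest from the median of the injury sum were FM4, whose library stood apart, and FM5. Without them, r with that sum was 0.923 for *Cdkn1a*, 0.889 for *Cdkn2a*, 0.833 for *Cdkn2b*, 0.792 for *Trp53*, 0.585 for *Gdf15*, 0.534 for *Cdkn2c*, −0.119 for *Cdkn1b*, −0.331 for *Ccng1* and −0.496 for *Mdm2*. No r was computed without FM4 alone. Likewise, without FM3 and MM5, the 2 mice farthest from the median of the immune sum, r with that sum was 0.779 for *Cdkn1a*, 0.672 for *Gdf15*, 0.556 for *Trp53*, 0.537 for *Cdkn2b*, 0.287 for *Cdkn2a*, 0.284 for *Cdkn2c*, 0.162 for *Cdkn1b*, −0.106 for *Ccng1* and −0.411 for *Mdm2*.

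Litter C held 1 mouse of each group, and both of its mutants, MM5 and FM5, were among the 3 mutants lowest in *Cdkn1a* and among the 4 lowest in *Gdf15*. The sample titles begin with a prefix that all mice of a litter share and that differs between litters, and its meaning is not given. Whether this is litter, mouse or what the prefix marks cannot be told apart.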
